A study of Mus musculus with 20 samples.

Results

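POU4F1 peaks were set against H3K27me3 in CUT&Tag data from mouse embryos. The peaks were 34249 of POU4F1 replicate 1 and 29096 of POU4F1 replicate 2, each list taken alone, after 73 and 193 peaks outside chromosomes 1 to 19, X and Y were left out. The regions were the 10317 merged intervals that held a peak of both H3K27me3 replicate 2 (14140 peaks) and replicate 3 (39310 peaks), out of 39704 merged intervals, with a median width of 2174 bp. A POU4F1 peak was called inside when its summit lay in such a region, at the edge when the summit lay within 2 kb of one, and outside otherwise. These are 4 of the 20 libraries of the study, of which 14 had a peak list; H3K27ac replicates 2 and 3, H3K4me3 replicate 2 and 4 ISL1 lists were used beside them. All libraries came from the tissue given as CVG (the usual short form of cochleovestibular ganglion, the source of auditory and vestibular neurons) of C57BL/6J embryos at E11.5, with no genotype or treatment difference between libraries. Nuclei were taken from whole dissected ganglia, so each list pools neurons with any other cells of the dissection, and the labels do not say whether replicates came from separate embryos.

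CUT&Tag tethers a transposase to an antibody-bound protein or histone mark, which cuts out the neighbouring DNA for sequencing. POU4F1 (also called BRN3A) is a POU homeodomain transcription factor of sensory neurons and is needed for their differentiation and survival. H3K27me3 is the histone mark laid down by Polycomb repressive complex 2 and is typical of silent developmental genes, while H3K27ac marks active promoters and enhancers on the same lysine, so that one histone tail cannot carry both. In bulk peak lists both can still appear at one site, from different alleles, nucleosomes or cells, and these cannot be told apart here.

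The marks fell on the gene lists as follows. H3K27me3 regions came within 1 kb of either end of 39 of 39 Hox genes, 18 of 21 inner ear neuron transcription factors, 8 of 20 pan-neuronal genes and 0 of 20 housekeeping genes. H3K27ac lay there at 5 of 39 Hox genes, 19 of 20 housekeeping genes, 20 of 20 pan-neuronal genes and 20 of 21 inner ear neuron transcription factors, so that most of this last list had both marks. It also lay there at 12 of 18 mesenchyme and cartilage genes, 13 of 21 otic epithelium and hair cell genes, 7 of 13 glial and neural crest genes, 7 of 14 muscle and heart genes and 4 of 13 endothelial and blood genes. The library labelled H3K4me3 replicate 1 overlapped 92.3% of the inside and 0.570% of the outside peaks of POU4F1 replicate 1, a pattern like that of H3K27me3, and was used for no H3K4me3 result.

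The POU4F1 lists shared few sites. Of the 34249 peaks of replicate 1, 546 (1.59%) overlapped a peak of replicate 2, against 377.1 on average among shifted peaks, a ratio of 1.45. The lists are therefore described side by side and never pooled.

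Inside summits fell in 60 promoter windows for POU4F1 replicate 1 and in 24 for replicate 2. The 4 windows shown are those whose summit ranked in the best 1% of its list. They run from 250 bases before to 50 bases after an annotated transcription start, 5′ to 3′ on the strand of the gene, and come from RefSeq with assembly GRCm38.p6. The capitals mark the 21 bases centred on the POU4F1 summit. Tmem132e (a transmembrane protein gene) spans chr11:82388650-82388949 on the + strand, Prkcq (protein kinase C theta) chr2:11172132-11172431 on the + strand, Neurog1 (neurogenin 1, the proneural factor that specifies inner ear neurons) chr13:56252131-56252430 on the - strand, and Celf6 (an RNA-binding protein gene) chr9:59578087-59578386 on the + strand.
Tmem132e: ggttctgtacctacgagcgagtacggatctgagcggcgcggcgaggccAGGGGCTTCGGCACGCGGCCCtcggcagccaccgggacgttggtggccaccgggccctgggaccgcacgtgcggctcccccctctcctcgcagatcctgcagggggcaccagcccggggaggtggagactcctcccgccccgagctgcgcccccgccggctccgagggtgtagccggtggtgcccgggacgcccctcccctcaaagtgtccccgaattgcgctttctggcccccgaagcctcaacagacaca
Prkcq: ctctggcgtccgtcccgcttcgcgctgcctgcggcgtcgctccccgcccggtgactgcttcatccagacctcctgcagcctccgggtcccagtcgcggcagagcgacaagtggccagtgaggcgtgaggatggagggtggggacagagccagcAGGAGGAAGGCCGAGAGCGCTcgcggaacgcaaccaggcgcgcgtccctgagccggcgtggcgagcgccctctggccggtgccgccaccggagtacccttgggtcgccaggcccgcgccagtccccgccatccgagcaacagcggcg
Neurog1: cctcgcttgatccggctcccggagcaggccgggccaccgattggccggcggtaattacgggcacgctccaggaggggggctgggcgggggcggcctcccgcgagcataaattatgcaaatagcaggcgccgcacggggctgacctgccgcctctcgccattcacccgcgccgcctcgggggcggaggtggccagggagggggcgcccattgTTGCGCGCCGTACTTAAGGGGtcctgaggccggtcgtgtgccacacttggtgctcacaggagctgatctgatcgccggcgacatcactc
Celf6: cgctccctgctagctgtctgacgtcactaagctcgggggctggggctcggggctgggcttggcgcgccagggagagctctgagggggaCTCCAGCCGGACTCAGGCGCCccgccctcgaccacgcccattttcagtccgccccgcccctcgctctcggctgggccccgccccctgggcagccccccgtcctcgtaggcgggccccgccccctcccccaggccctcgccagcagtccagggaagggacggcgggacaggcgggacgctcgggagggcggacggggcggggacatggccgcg

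The summits of Tmem132e, Prkcq and Neurog1 were from POU4F1 replicate 1 and lay at -192, -87 and -29 bases from the start. That of Celf6 was from replicate 2 and lay at -152. These distances are to the start used for each promoter window, which can differ from the gene ends used elsewhere in the text. To the nearest gene end, the summits at Tmem132e, Prkcq, Neurog1 and Celf6 lay 0.144, 0.39, 0.029 and 0.102 kb away. H3K27ac overlapped the peaks at Tmem132e, Neurog1 and Celf6 in both H3K27ac lists and the peak at Prkcq in neither. The windows were rich in G and C, at 72.3% for Tmem132e, 73.0% for Prkcq, 69.3% for Neurog1 and 76.7% for Celf6. The median was 64.5% over the 60 windows of replicate 1, 62.7% over the 3270 windows that overlapped an H3K27me3 region and 56.3% over all 21262 windows.

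Letters known from POU factor sites were counted in these windows as a description. The self-complementary letters ATTAAT, part of the known POU4F1 site, were in 2 of the 60 windows of replicate 1 and 2 of the 24 of replicate 2, against 2.11% of the windows that overlapped H3K27me3 and 4.04% of all windows. The windows shown above held no ATTAAT. The octamer ATGCAAAT, searched on both strands (ATTTGCAT), was chosen after the windows were seen. It was in the Neurog1 window, which was 1 of 60 in replicate 1, and in 0 of 24 in replicate 2. At Neurog1 it lay upstream of the capitals, outside the bases marked around the summit. Of the windows that overlapped H3K27me3, 1.22% held the octamer, and of all windows 1.66%. The 2 motifs cannot overlap by more than 2 letters.

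POU4F1 summits lay inside H3K27me3 regions more often than shifted peaks in both lists. In replicate 1, 1149 of 34249 summits were inside (3.35%, Wilson 95% interval 3.17 to 3.55%), against 451.4 ± 23 (SD over 1000 circular shifts), a ratio of 2.55. In replicate 2, 612 of 29096 were inside (2.10%, interval 1.95 to 2.28%), against 373.6 ± 19.6, a ratio of 1.64. The permutation p was 0.002 for each list, two-sided, the smallest these shifts can give. By number, most POU4F1 peaks were elsewhere: 32480 (94.8%) of replicate 1 and 28071 (96.5%) of replicate 2 were outside. The regions covered 33.1 Mb, which is 1.24% of the shifted span.

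The edges held a smaller excess. In replicate 1, 620 summits (1.81%) lay within 2 kb of a region, against 428.7 ± 21.9 among shifts, a ratio of 1.45 with permutation p = 0.002. In replicate 2, 413 (1.42%) lay there, against 355.9 ± 19.6, a ratio of 1.16 with permutation p = 0.006. With shifts of only 0.1 to 1 Mb, which keep each peak in its neighbourhood, the edge ratio of replicate 2 was 1.06 (permutation p = 0.218) and that of replicate 1 was 1.27 (permutation p = 0.002). Of the edge peaks, 76 of 620 in replicate 1 and 50 of 413 in replicate 2 sat in gaps of up to 5 kb between neighbouring regions. A shift keeps the spacing of peaks and takes no account of base composition or mappability.

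**Figure D1:**
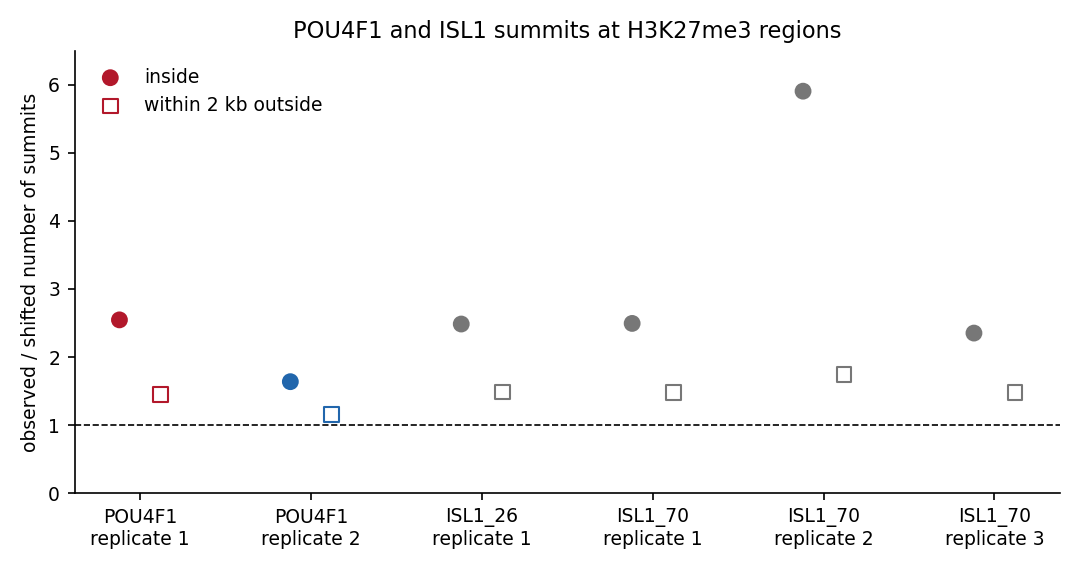
Observed over shifted number of summits (vertical axis, a ratio with no unit) inside H3K27me3 regions (filled circles) and within 2 kb outside them (open squares), for 2 POU4F1 lists in colour and 4 ISL1 lists in grey, each point 1 library; the dashed line is a ratio of 1. POU4F1 replicate 1 (2.55 inside) sits beside 3 of the ISL1 lists, replicate 2 (1.64) below all of them, and ISL1_70 replicate 2 (5.91) above all others.

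ISL1, the LIM homeodomain factor also profiled in this tissue, gave ratios near that of POU4F1 replicate 1 in 3 of its 4 lists. Of these 4 lists, 1 was labelled ISL1_26 and 3 were labelled ISL1_70, and they were pooled here as 1 group. The inside ratio averaged 2.09 ± 0.64 over the POU4F1 lists (SD, n = 2) and 3.31 ± 1.73 over the ISL1 lists (SD, n = 4), a difference of -1.22 with an exact permutation p of 0.533, two-sided. The edge ratio averaged 1.30 ± 0.20 over the POU4F1 lists and 1.55 ± 0.13 over the ISL1 lists, with an exact permutation p of 0.133, which is the smallest that 2 against 4 lists can give. Without ISL1_70 replicate 2 the inside difference was -0.35. No difference between the factors was shown by these lists, and the design could not have passed 0.05.

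The excess dropped at the region boundary. In replicate 1 the ratio was 2.33 in the first 0.5 kb inside the boundary and 1.41 in the first 0.5 kb outside it. Deeper inside it was 2.82 at 0.5 to 1 kb and 2.75 beyond 10 kb, and farther out it came down to 1.17 at 5 to 10 kb and 0.914 beyond 100 kb. In replicate 2 it was 1.75 in the first 0.5 kb inside and 1.25 in the first 0.5 kb outside, and 0.962 beyond 100 kb. Deeper inside, the ratio of replicate 2 was 1.58 at 1 to 2 kb and 1.34 at 2 to 5 kb (interval 1.09 to 1.63). Beyond 10 kb inside it was 1.997, from 13 summits. Both lists were thus lower just outside the boundary than just inside it, but replicate 2 was also lower at 2 to 5 kb inside. In replicate 1 all 8 distance bins between 0 and 100 kb outside kept intervals above 1.

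**Figure D2:**
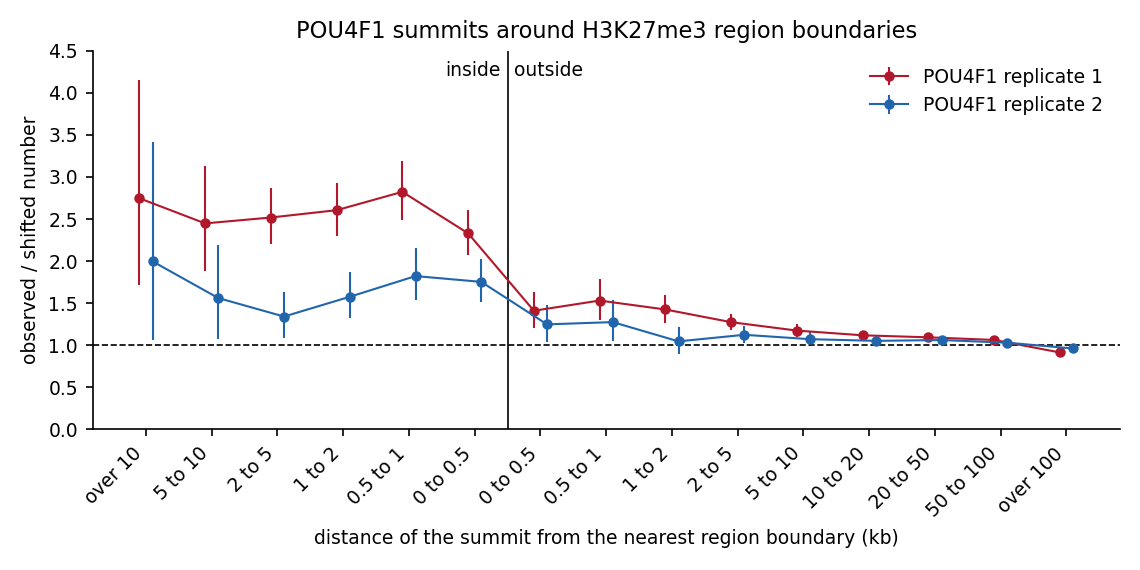
Observed over shifted number of POU4F1 summits (vertical axis) by distance from the nearest H3K27me3 region boundary in kb (horizontal axis, unequal bins, inside on the left and outside on the right of the vertical line); bars are exact Poisson 95% intervals of the observed count. Replicate 1 stands at 2.33 just inside and 1.41 just outside, and replicate 2 at 1.75 just inside and 1.25 just outside.

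The ratio was above 1 in every class of region width in both lists. In replicate 1 it was 1.95 in regions under 1 kb (37 summits), 2.78 at 1 to 2 kb (152), 2.78 at 2 to 5 kb (448), 2.43 at 5 to 10 kb (310) and 2.27 at 10 kb and over (202). In replicate 2 the ratio was 2.09 under 1 kb, with 33 summits, and 1.47 at 10 kb and over, with 108. The intervals of these last 2 bins overlapped, at 1.44 to 2.93 and 1.20 to 1.77.

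Inside peaks were spread over the whole ranking of each list. Peaks of each list were divided into 10 rank deciles by the −log10 q that the peak caller gave, decile 1 being the highest. In replicate 1 the inside ratio was 3.0 in decile 1 (138 of 3424 peaks) and 2.38 in decile 10 (103 of 3425), with the lowest value, 1.94, in decile 9. All 10 deciles had intervals above 1. The 5 best deciles together gave 2.63 and the 5 last 2.46. In replicate 2 the ratio was 1.86 in decile 1 (71 of 2909 peaks) and 1.39 in decile 10 (46 of 2910), with the lowest value, 1.18, in decile 6 and the highest, 2.10, in decile 4. There 9 of 10 deciles had intervals above 1, and the 5 best gave 1.80 against 1.47 for the 5 last. No trend over deciles was tested. Alternatives were run for deciles 1 and 10. The decile 1 value of replicate 1 was 2.36 with local shifts, 2.12 without H3K27me3 replicate 2 and 3.89 without H3K27me3 replicate 3.

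Edge peaks had lower ratios, and fewer of their intervals were above 1. In replicate 1 their ratio ran between 1.12 in decile 3 and 1.98 in decile 5, and 5 of 10 intervals were above 1. In replicate 2 it ran between 0.899 in decile 5 and 1.34 in decile 1, and 0 of 10 intervals were above 1.

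Inside peaks were close to outside peaks in median width, and in median rank in replicate 1. In replicate 2 their median rank was better, a difference that was not tested. Their median width was 498 bp, against 468 bp for outside peaks, in replicate 1, and 486 bp against 465 bp in replicate 2. The median rank percentile, where 0 is the strongest, was 48.3 for inside and 50.2 for outside peaks in replicate 1, and 43.2 and 50.2 in replicate 2.

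**Figure D3:**
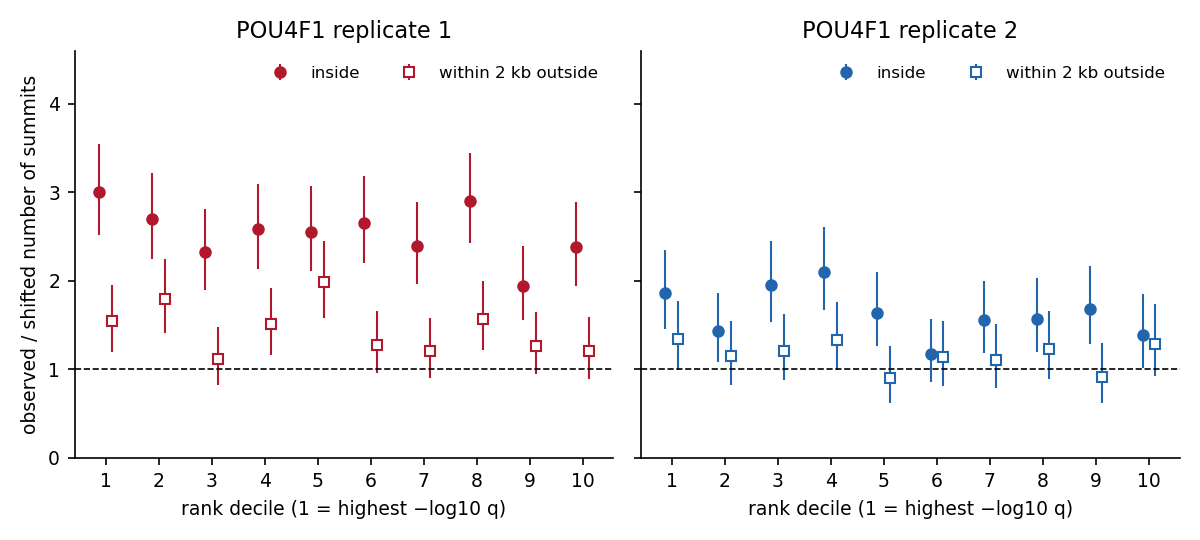
Observed over shifted number of POU4F1 summits (vertical axis) in each rank decile (horizontal axis, 1 holding the highest −log10 q) inside H3K27me3 regions (filled circles) and within 2 kb outside (open squares), with exact Poisson 95% intervals; left, replicate 1, right, replicate 2. Inside values lie between 1.94 and 3.0 in replicate 1 and between 1.18 and 2.10 in replicate 2.

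H3K27ac lay at a larger share of POU4F1 peaks inside H3K27me3 regions than outside them. In replicate 1, 452 of 1149 inside peaks (39.3%, interval 36.6 to 42.2%) overlapped an H3K27ac peak of replicate 2 or 3, against 32.7% of edge and 28.4% of outside peaks. In replicate 2, 205 of 612 inside peaks (33.5%, interval 29.9 to 37.3%) did, against 24.9% of edge and 14.6% of outside peaks. The odds ratio of inside over outside was 1.64 in replicate 1 (Fisher's exact test, two-sided, adjusted p = 9.81e-15 over 4 comparisons) and 2.94 in replicate 2 (adjusted p = 4.08e-30). Inside over edge it was 1.33 in replicate 1 (same exact test, adjusted p = 0.00626) and 1.52 in replicate 2 (adjusted p = 0.00471). Peaks of 1 list are not replicates, so these p-values describe the lists.

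H3K27ac itself was denser near H3K27me3 regions, which the shifts take into account. It covered 13.9% of region bases and 5.60% of the shifted span. Shifted peaks of replicate 1 overlapped it in 21.2% of cases inside, 14.03% at the edge and 9.93% outside. The odds of H3K27ac over the shifted odds were then 2.41 inside and 3.597 outside in replicate 1, and 1.89 inside and 1.65 outside in replicate 2. Relative to the cover of H3K27ac, the order of inside and outside was therefore opposite in the lists, and that difference was not tested.

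Both kinds of inside peak were above the shifts. Inside peaks with H3K27ac numbered 452 in replicate 1, against 95.8 among shifts (ratio 4.72), and 205 in replicate 2, against 78.8 (ratio 2.60). Inside peaks without H3K27ac numbered 697 in replicate 1, against 355.6 (ratio 1.96), and 407 in replicate 2, against 294.8 (ratio 1.38). Outside the regions, peaks with H3K27ac were also above the shifts, with ratios of 2.78 in replicate 1 and 1.54 in replicate 2, while those without it gave 0.774 and 0.933. In replicate 1, 205 inside peaks had H3K27ac in both lists, 109 in H3K27ac replicate 2 alone and 138 in replicate 3 alone.

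The share with H3K27ac was lower in wide regions, but no shifted share was computed by region width. The cover of H3K27ac in each width class is therefore not taken into account. In replicate 1 the share was 45.95% of inside peaks in regions under 1 kb and 49.3% at 1 to 2 kb. It was 45.3% at 2 to 5 kb, 37.7% at 5 to 10 kb and 19.8% at 10 kb and over. In replicate 2 it was 51.5%, 46.0%, 38.4%, 28.2% and 13.9% in the same bins. By rank, 50.7% of the inside peaks of decile 1 in replicate 1 had H3K27ac, and 31.4 to 43.7% of those of the other deciles. In replicate 2 decile 1 had 35.2%, below deciles 3, 5, 6 and 7, of which decile 5 had the highest share, 44.4%.

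**Figure D4:**
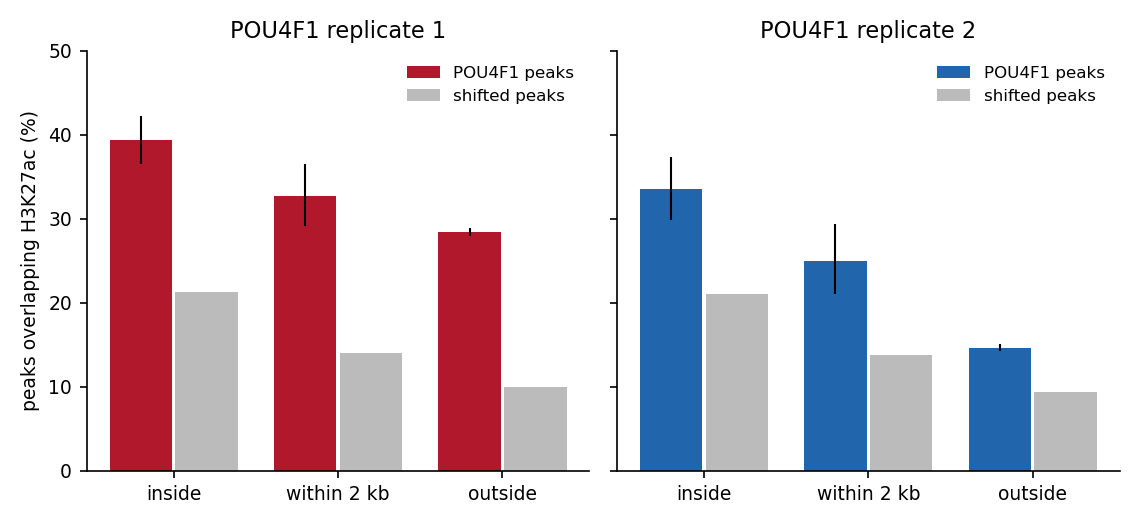
Percent of POU4F1 peaks overlapping an H3K27ac peak of replicate 2 or 3 (coloured bars, Wilson 95% intervals) and mean percent among shifted peaks (grey bars), for peaks inside H3K27me3 regions, within 2 kb and outside; left, replicate 1, right, replicate 2. The coloured bars stand at 39.3% inside, 32.7% within 2 kb and 28.4% outside in replicate 1, and at 33.5%, 24.9% and 14.6% in replicate 2.

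Gene ends, H3K4me3 and ISL1 were also at a larger share of inside than of outside peaks, and of inside than of outside shifted peaks. Summits within 1 kb of a protein-coding gene's start or end made up 31.9% of inside and 5.19% of outside peaks in replicate 1, and 28.1% and 4.23% in replicate 2. Among shifted peaks these shares were 22.1% inside and 2.71% outside in replicate 1, and 22.1% and 2.69% in replicate 2. The excess inside the regions was present both near gene ends, with ratios of 3.68 in replicate 1 and 2.08 in replicate 2, and away from them, with 2.22 and 1.51. H3K4me3 replicate 2, a promoter mark, overlapped 17.2% of inside and 3.48% of outside peaks in replicate 1, and 16.3% and 2.28% in replicate 2. Shifted peaks gave 7.14% inside and 0.974% outside in replicate 1, and 7.06% and 0.933% in replicate 2. An ISL1 peak in at least 2 lists overlapped 12.6% of inside and 8.58% of outside peaks in replicate 1, and 11.8% and 2.15% in replicate 2. Shifted peaks gave 5.02% inside and 1.15% outside in replicate 1, and 5.00% and 1.10% in replicate 2. Divided by its shifted share, the share was lower inside than outside for all 3 features in replicate 1 and for gene ends and H3K4me3 in replicate 2, and higher inside for ISL1 in replicate 2. These differences were not tested. Among inside peaks of replicate 1, ISL1 was at 21.0% of those with H3K27ac and at 7.17% of those without, and H3K4me3 at 32.5% and 7.32%.

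The 10 inside peaks of replicate 1 with the highest −log10 q had values of 437.9 to 1190, and 9 of 10 overlapped H3K27ac. The first was in Skor2, a corepressor gene of the developing brain, at rank 11 of the list (−log10 q of 1190), in a region of 7.11 kb. The second was in Pou4f2, the paralog of Pou4f1 known for retinal ganglion cells, at chr8:78436003-78436785 (−log10 q of 831.7), with H3K27ac in both lists and an ISL1 peak in 0 lists. The third was in Lmx1b, a LIM homeodomain gene, at chr2:33615099-33616798 (694), with H3K27ac in replicate 3. The next were in Zfp804a, a zinc finger gene (643.6), and in Scn3b, a sodium channel subunit gene (596.4), where the summit lay 0.096 kb from a gene end. The remaining 5 were 7.44 kb from Onecut1, a homeodomain gene, in Cadps2, a vesicle release gene, 182.6 kb from Irx2, an Iroquois homeodomain gene, 0.144 kb from Tmem132e and in Barhl1, a homeodomain gene of hair cells and neurons. The peak in Barhl1 was the 1 of 10 without H3K27ac, and its region spanned 12.1 kb. Of the 10 peaks, 8 overlapped an ISL1 peak in at least 1 list and 0 overlapped POU4F1 replicate 2.

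In replicate 2 the 10 best inside peaks had −log10 q values of 128.9 to 172.7, and 6 of 10 overlapped H3K27ac. The first was 0.102 kb from Celf6 (rank 55, −log10 q of 172.7) and was the 1 of 10 that overlapped replicate 1. It was followed by peaks in Pfkp, a phosphofructokinase gene (167.7), and in Dixdc1, a gene of Wnt signalling (150.5). A peak 5.16 kb from Pou4f3, the paralog of Pou4f1 needed by hair cells, came next (148.1), in a region of 12.4 kb with H3K27ac in both lists and ISL1 in 2 lists. Others were 1.05 kb from Bcl11b and in Bcl6, which encode zinc finger repressors, in Gprc5a, an orphan receptor gene, in Tbx18, a T-box gene of mesenchyme, and in Fcgr3, an Fc receptor gene of myeloid cells. Those in Bcl6, Gprc5a and Fcgr3 had no H3K27ac in either list.

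Inside peaks of the POU4F1 lists overlapped each other at 34 sites. Of the 1149 inside peaks of replicate 1, 37 (3.22%) overlapped any peak of replicate 2, against 1.53% of outside peaks and 1.84% of shifted peaks inside. Of the 34 sites, 21 had H3K27ac, 15 lay within 1 kb of a gene end, 13 had H3K4me3 and 0 ranked in the best 10% of both lists. The first by mean rank were in Lfng, a glycosyltransferase gene that modifies Notch receptors, at chr5:140611450-140611765 (rank percentiles 21.8 and 8.92), and 0.326 kb from Sp9, a zinc finger transcription factor gene, at chr2:73271345-73271861 (39.6 and 1.53). They were followed by sites in Xkr6 and Slitrk2, a synaptic adhesion gene, near Celf6 and Acot12, 0.211 kb from Tbx2, a T-box gene, 2.90 kb from Hoxa13, and in Garnl3 and Aldh1a3, which encodes an enzyme of retinoic acid synthesis. The site at Tbx2 ranked at 3.77% in replicate 1 and 72.3% in replicate 2, so a high rank in one list did not go with a high rank in the other there.

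At Pou4f1 itself, replicate 1 had 2 inside peaks and replicate 2 had none. They lay at chr14:104469304-104469966 (−log10 q of 161.8, rank percentile 8.75) and chr14:104473844-104474548 (282.8, 2.39), both in the region chr14:104468396-104475052. The summit of the second lay 6.11 kb from Pou4f1 and 3.31 kb from Obi1, its nearest gene. Both peaks overlapped H3K27ac and a peak in all 4 ISL1 lists. Replicate 1 had 2 more peaks on the other side of the gene, outside the regions (rank percentiles 25.0 and 4.40), both with H3K27ac. At Isl1, which has 3 H3K27me3 regions in its window, replicate 1 had 2 edge peaks (rank percentiles 66.2 and 31.7), no inside peak, and replicate 2 had no peak.

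H3K27me3 regions joined across gaps of up to 5 kb made 6953 domains with a median width of 3.19 kb. Of these, 968 (13.9%) held a summit of replicate 1, 549 (7.90%) a summit of replicate 2, 137 both and 1380 either. The regions held 34.7 summits per Mb, against 12.6 per Mb elsewhere, in replicate 1, and 18.5 against 10.8 in replicate 2. Wide domains held summits more often but not more densely. In replicate 1, 18 of 22 domains of 50 kb and over had a summit (27.1 per Mb), against 411 of 4749 domains under 5 kb (38.3 per Mb). In replicate 2 these were 12 of 22 (11.6 per Mb) and 222 of 4749 (20.4 per Mb).

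The 5 domains with most summits of each list, ties taken in order of summits per kb, are given next. The Hoxa domain, chr6:52149386-52278406 (129 kb), over genes that set position along the body axis, and the Hoxc domain, chr15:102902790-103071831 (169 kb), each held 6 summits of replicate 1 and 2 of replicate 2, with H3K27ac at 0 of the 8. The Lmx1b domain, chr2:33602413-33650228, held 5 and 1, with H3K27ac at 3. The domain chr6:47651615-47687019, over the predicted genes Gm40369, Gm40367, Gm40365, Gm36327, Gm40364 and Gm40363, held 7 summits of replicate 1 and 11 of replicate 2, with H3K27ac at 0 of 18. A neighbouring domain, chr6:47737070-47778516, held 1 and 10, again with H3K27ac at 0. The domain chr8:123536479-123624877 at Gas8, a single region of 88.4 kb, held 6 and 3, with H3K27ac at 1. Genes of a predicted cluster can be near-identical copies, so the placing of reads among them is uncertain. In replicate 2, 45 domains held 2 or more summits, so its last 2 places were tied; the domains at Runx1t1 and Atg4a came first among these by density, with 2 summits each, all with H3K27ac, in 1.85 and 3.18 kb. Without the 2 chromosome 6 domains at the Gm genes and the one at Gas8 the inside ratio was 2.53 in replicate 1 and 1.58 in replicate 2.

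Genes with an inside POU4F1 summit were counted over a window of the gene and 10 kb to either side. An H3K27me3 region lay in this window at 6514 of 21883 protein-coding genes (29.8%), called marked genes here. An inside summit of replicate 1 lay there at 1069 genes, 4.89% of all and 16.4% of marked genes, and one of replicate 2 at 638 genes, 2.92% of all and 9.79% of marked genes. Both lists had one at 185 genes, 0.845% of all and 2.84% of marked genes. Any summit, inside or not, lay at 58.7% of marked and 42.3% of unmarked genes in replicate 1, and at 50.5% and 40.9% in replicate 2. Counts depended on the window: with the gene body alone they were 647 in replicate 1, 348 in replicate 2 and 82 in both, and within 1 kb of gene ends 373, 174 and 20.

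Most gene lists were above the share of all marked genes, 13 of 17 in replicate 1 and 10 of 17 in replicate 2, but fewer were above the density of all regions, 8 of 17 and 5 of 17. Of the 335 genes in the 17 lists, 261 were marked, and of these 107 (41.0%) had an inside summit of replicate 1, 46 (17.6%) one of replicate 2 and 27 both. These genes carry long H3K27me3 regions, so the density of summits per Mb of region is given beside the counts. Neighbouring genes share peaks, and no list was tested.

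Inner ear neuron transcription factors were the list with the highest share and density in replicate 1. Of 19 marked members, 13 (68.4%) had an inside summit of replicate 1, at 69.6 summits per Mb, and 3 one of replicate 2, at 13.9 per Mb, against 34.7 and 18.5 over all regions. Of the 13, 10 had an inside summit with H3K27ac. The best ranked were at Neurog1 (−log10 q of 413, rank percentile 0.771, with H3K27ac in both lists), Pou4f1 (above), Ebf3, a helix-loop-helix factor gene of neurons (replicate 2, rank percentile 7.57, with H3K27ac and ISL1 in 3 lists), and Casz1, a zinc finger gene (11.1, without H3K27ac). Neurod1, Gata3, Nhlh1, Nhlh2, Runx1, Shox2 and Ebf2 each had 1 inside summit of replicate 1, and Gata3 and Ebf3 also had one of replicate 2; these were named after their values were seen.

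Transcription factors of other neurons had a lower share in replicate 1 and a higher one in replicate 2, with a density in replicate 1 near that of all regions. Of 37 marked members, 18 (48.7%) had an inside summit of replicate 1 and 9 (24.3%) one of replicate 2, against 68.4% and 15.8% of the inner ear list, at 37.1 and 11.52 summits per Mb. H3K27ac was at an inside summit of 7 of the 23 members with one in either list. The best ranked were at Pou4f2, Barhl1, Lhx2, a LIM homeodomain gene (rank percentile 0.943, in a region of 21.8 kb, without H3K27ac but with replicate 2 overlapping), and Dlx1, a homeodomain gene of forebrain interneurons (5.70, with H3K27ac replicate 2). The overlapping peak of replicate 2 at Lhx2 was weak in its list, at rank percentile 93.8 (−log10 q of 2.285).

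Otic epithelium and hair cell genes had 8 of 19 marked members with an inside summit of replicate 1 and 6 of 19 with one of replicate 2, at 52.1 and 27.8 summits per Mb. Lmx1b alone held 5 of the 15 inside summits of replicate 1 and 3 of the 8 of replicate 2 in this list. The best ranked were at Lmx1b, Pou4f3, Lfng and Pax2, a paired-box gene of the otic vesicle. H3K27ac was at an inside summit of 4 of the 9 members with one in either list. T-box genes had 6 of 12 in each list, 4 in both, at 31.7 and 27.7 summits per Mb, led by Tbx18, Tbx2, Tbx4 and Tbx21. The peaks at Tbx18 and Tbx2 had H3K27ac and those at Tbx4 and Tbx21 had none.

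Hox genes showed inside summits with almost no acetylation. Of 39 marked members, 23 had an inside summit of replicate 1 and 5 one of replicate 2, from only 18 and 3 summits that neighbours share, at 37.3 and 6.21 per Mb. H3K27ac was at an inside summit of 2 of 24 such genes, Hoxb2 and Hoxb3, named after their values were seen. The best ranked lay in Hoxd3 and Hoxd4, 1 peak counted for both (rank percentile 14.7), and at Hoxa10 and Hoxa11, again 1 peak (23.2). Forkhead genes had 8 of 20 and 2 of 20, at 26.5 and 6.63 per Mb, led by Foxc1 (2.11, with H3K27ac), Foxd3, Foxb1 and Foxf2. Wnt genes, which encode secreted ligands, had 7 of 19 and 4 of 19, at 46.0 and 15.3 per Mb, led by Wnt8a, Wnt10a, Wnt3 and Wnt9b.

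Genes of other tissues were also among those with inside summits. Mesenchyme and cartilage genes had 7 of 17 in replicate 1 and 4 of 17 in replicate 2, at 47.2 and 26.2 summits per Mb, above the 34.7 and 18.5 of all regions, led by Tbx18, Six2 (rank percentile 0.961, 0.462 kb from the gene, with H3K27ac replicate 3), Prrx1 and Twist1. The densities of the next 3 lists lay below those of all regions. Glial and neural crest genes had 5 of 11 and 1 of 11, at 27.8 and 5.55 per Mb, led by Foxd3, Pax3, Tfap2a and Snai2, with H3K27ac at 0 of 5. Muscle and heart genes had 4 of 11 and 1 of 11, at 23.7 and 9.47 per Mb, namely Nkx2-5, Hand2, Tbx5 and Gata6, with H3K27ac at 0 of 4. Gut and liver genes had 3 of 7 and 0 of 7, at 32.3 and 0 per Mb, among them Cdx2 and Cdx1, homeodomain genes of the gut. Endothelial and blood genes had 0 of 8 and 3 of 8, at 0 and 30.9 per Mb, namely Kdr, Gata2 and Tal1. Among mesenchyme and cartilage genes, H3K27ac was at an inside summit of 6 of the 8 members with one in either list. For gut and liver genes this was 1 of 3, and for endothelial and blood genes 1 of 3.

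Lists of genes that neurons use gave small counts. Over all marked genes the shares were 16.4% in replicate 1 and 9.79% in replicate 2. Of the 20 pan-neuronal genes, 10 were marked and 0 had an inside summit in either list, in 49.5 kb of region. With only 10 marked genes, a count of 0 cannot be told apart from the shares over all marked genes. Of 11 marked neurotrophin and GDNF signalling genes, Bdnf had one of replicate 1, and Ntf3, Gfra2 and Ntf5 had one of replicate 2, at 10.9 and 32.6 per Mb. The peak of replicate 2 at Gfra2, a receptor gene of the GDNF family, lay 0.023 kb from a gene end with H3K27ac in both lists. Axon guidance genes had 6 of 20 and 1 of 20, at 58.7 and 8.38 per Mb, above the density of all regions in replicate 1 and below it in replicate 2, led by Epha5, an ephrin receptor gene (rank percentile 10.7), Ephb2, Slit2 and Dcc. Of the Polycomb subunit genes, 3 of 8 marked members, among them Phf19 and Bmi1, had an inside summit of replicate 1 and 0 one of replicate 2, at 45.5 and 0 per Mb. Of 20 housekeeping genes 1 was marked and 0 had an inside summit.

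**Figure D5:**
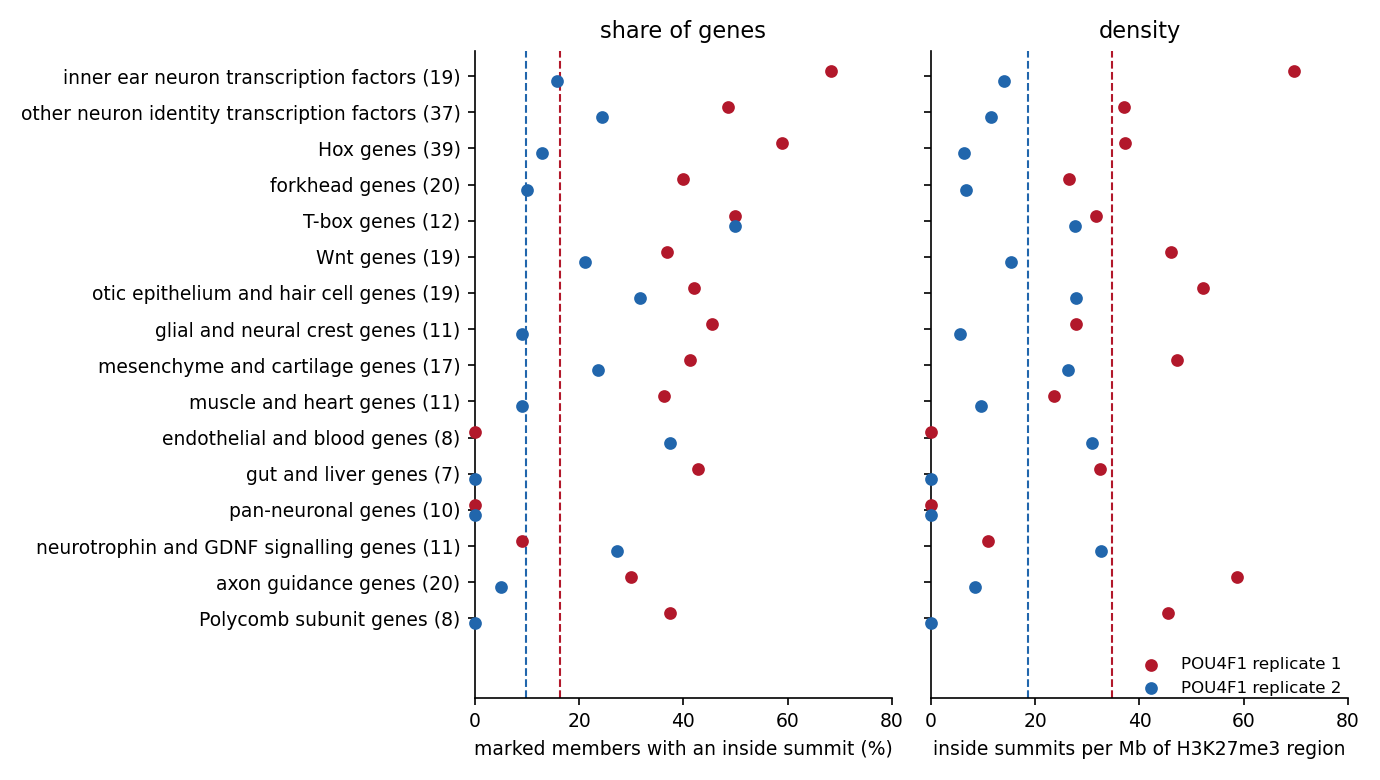
For each gene list with at least 5 marked members (their number in parentheses), the percent of marked members with an inside POU4F1 summit (left) and the inside summits per Mb of H3K27me3 region in their windows (right), for replicate 1 in red and replicate 2 in blue. Dashed lines are the values over all marked genes (16.4% and 9.79%) and all regions (34.7 and 18.5 per Mb); inner ear neuron transcription factors stand at 68.4% and 69.6 per Mb in replicate 1, against 15.8% and 13.9 per Mb in replicate 2.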

How the data were processed

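The authors deposited 1 peak list per library, called with MACS2 against a control, per the file headers (the peak names); the control, the options and the depth are not stated in these sources. Bowtie2, FastQC, SEACR and the build mm10 are named in the submitters' processing notes without roles. The deposited columns hold a fold enrichment (a ratio over background) and −log10 p and q values, made by the authors' caller, with a lowest −log10 q of 1. They served only for ranks and filters inside 1 list. Depth is unknown, so the number of peaks limits precision, and intervals (95%) cover counting error only.

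H3K27me3 peaks of replicates 2 and 3 were merged, and regions with a peak of each kept. POU4F1 lists were moved by a random offset per chromosome 1000 times; p is two-sided. Overlap means at least 1 bp. H3K27ac shares were set against each other with Fisher's exact test and Benjamini-Hochberg adjustment. Genes and promoter windows are from RefSeq GRCm38.p6 (the assembly of mm10): 21883 protein-coding genes, 17491 (79.9%) with a promoter entry, so windows around either gene end were used in place of start sites. The 335 list genes all matched. Named are the 10 best inside peaks of each list, the 5 domains with most summits, up to 10 sites shared by the lists, up to 4 members of each gene list, and Pou4f1 and Isl1. The members and lists were chosen with earlier results of these data known. The shift procedure was tested on simulated data. Python 3.11.15, numpy 2.4.6, scipy 1.17.1 and pandas 2.3.3 were used. A few genes that the rule selects are not reported here.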

Additional observations from a re-analysis of the deposited data

Results flagged for a closer look

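Among the 4 ISL1 lists, measured in the same way, ISL1_70 replicate 2 stood far from the others. Its summits lay inside H3K27me3 regions 5.91 times as often as shifted ones, against 2.35 to 2.49 in the other lists, and at the edge 1.74 times as often, against 1.48 to 1.49. It had 24573 peaks, of which 7.83% were inside, and 26.8% of those overlapped H3K27ac, against 32.5% of its outside peaks. In the other 3 ISL1 lists and both POU4F1 lists the inside share with H3K27ac was above the outside share. Chance flags about 1 in 20 groups of this size, and 2 were examined. The 2 groups were the inside and the edge ratios of the same 4 lists, so they were not independent.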

How the results depend on the processing

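The inside ratio stayed above 1 with permutation p = 0.002 under all 11 alternatives: it ran between 2.19 and 2.93 for POU4F1 replicate 1 and between 1.497 and 1.77 for replicate 2. These were overlap or containment of whole peaks, bases covered in both H3K27me3 lists, each H3K27me3 list alone, stricter q-values, regions of at least 2 kb, local shifts and, chosen after seeing the data, leaving out 3 domains or chromosomes X and Y. The H3K27ac odds ratio of inside over outside ran between 1.40 and 1.87 for replicate 1 and between 2.46 and 3.27 for replicate 2. Local shifts took the edge ratio of replicate 2 to 1.06 (permutation p = 0.218) and the decile 1 ratio of replicate 1 to 2.36; leaving out 1 H3K27me3 list gave 2.12 to 3.89 for that decile, and 2.20 to 2.44 for decile 10. Gene counts were 647, 348 and 82 (replicate 1, replicate 2, both) with the gene body alone and 373, 174 and 20 within 1 kb of gene ends. Genes with an inside summit in either list numbered 1522, and 638 to 1069 with 1 POU4F1 list left out. Leaving out each factor list in turn gave POU4F1 minus ISL1 differences of -1.67 to -0.35. Of 84 recomputed values, 73 kept their direction and their side of the threshold or size, among them edges of 1 or 5 kb and domain gaps of 2 or 10 kb. Narrower gene windows hold fewer summits by construction; the cause of the other changes was not tested. Depth is unknown and limits how many peaks each list can hold. No paired analysis was possible because peak lists give no measured level per library and each POU4F1 list was tested alone.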
